A study of Mus musculus with 13 samples.

Results

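Med1 peaks that carry neither NIPBL nor Rad21 made up more than any other kind of Med1 peak in wild type thymocytes. They are the intervals of the Med1 peak list that overlap by 1 bp or more no interval of the NIPBL list and none of the Rad21 list, and 8842 of 15112 Med1 peaks met that rule. The 3 lists hold 94313 peaks in all. The members were thus chosen by measured values, the positions of called peaks in all 3 lists, so their count is a description and was not tested.

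Mediator is a large protein complex that passes signals from transcription factors bound at enhancers and promoters to RNA polymerase II, and Med1 is the subunit best known for contacting nuclear receptors. NIPBL belongs to the complex that loads cohesin onto chromatin. Rad21 closes the cohesin ring, which forms and holds chromatin loops. Mediator and cohesin are known to meet at active enhancers and promoters. Med1 peaks that lack both NIPBL and Rad21 show where, in these lists, Med1 was called without an overlapping peak of either.

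The cells were sorted CD4+ CD8+ double-positive thymocytes, an intermediate stage of T cell development, from wild type mice of a mixed C57BL\6 and 129 background. Chromatin immunoprecipitation with sequencing (ChIP-seq) was made with 1 library for each of Med1, NIPBL and Rad21, so no peak count below has a replicate check. The Med1 and NIPBL chromatin was prepared in a buffer with 150 mM NaCl, and the Rad21 chromatin in a buffer with 800 mM NaCl. The labels list 13 samples, which also include 2 input, 4 Hi-C and 4 RNA-seq libraries, the last 2 kinds from wild type and Rad21 KO cells by their titles.

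RNA from 2 wild type libraries of the same sorted cell type, with 6633506 and 6500819 counts, served to check the cell type label. All 10 double-positive thymocyte markers were in the table, with a summed level of 15080 to 16490 CPM, counts scaled to a library total of 1000000. Rag1, which cuts antigen receptor genes for recombination, stood at 6837 and 6261 CPM, and the coreceptor gene Cd8a at 2465 and 2247. The lowest of the 10 was Ptcra, which encodes the partner of the T cell receptor beta chain in early thymocytes, at 9.35 and 8.46 CPM. The summed levels were 16.5 to 20.0 CPM over 5 B cell markers, 30.2 to 37.1 over 4 myeloid markers, 19.2 to 19.6 over 5 thymic epithelial markers and 3.38 to 3.47 over 2 erythroid markers, Hba-a1 and Alas2. Most of the B cell sum came from Cd79b (19.0 and 14.8 CPM). Itgam (19.3 and 26.6 CPM) made up most of the myeloid sum, and Psmb11 (16.6 and 17.2 CPM) most of the thymic epithelial sum. Cd79b, Itgam and Psmb11 each stood above Ptcra in both libraries. Ms4a1 and Pax5 had no count in wild type replicate 1, and Foxn1 had none in replicate 2. Transcripts of the ChIP targets were present, with Med1 at 334 and 296 CPM, Nipbl at 870 and 885 and Rad21 at 299 and 259. The ChIP cells themselves had no RNA measured.

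The first comparison asks how the Med1 list divides over the other 2 factors. Med1 peaks with neither factor were 58.5% of the list (exact 95% binomial interval 57.7 to 59.3%). The interval covers counting error alone and treats neighbouring peaks as independent. Another 4571 Med1 peaks (30.2%) overlapped NIPBL without Rad21, 546 (3.61%) overlapped Rad21 without NIPBL, and 1153 (7.63%) overlapped both. Seen from the other lists, 11.2% of 51994 NIPBL peaks and 6.41% of 27207 Rad21 peaks overlapped a Med1 peak, against 37.9% and 11.2% of Med1 peaks that overlapped NIPBL and Rad21. A missing overlap means that no peak was called there, and the lists give no signal below the calling threshold.

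**Figure D1:**
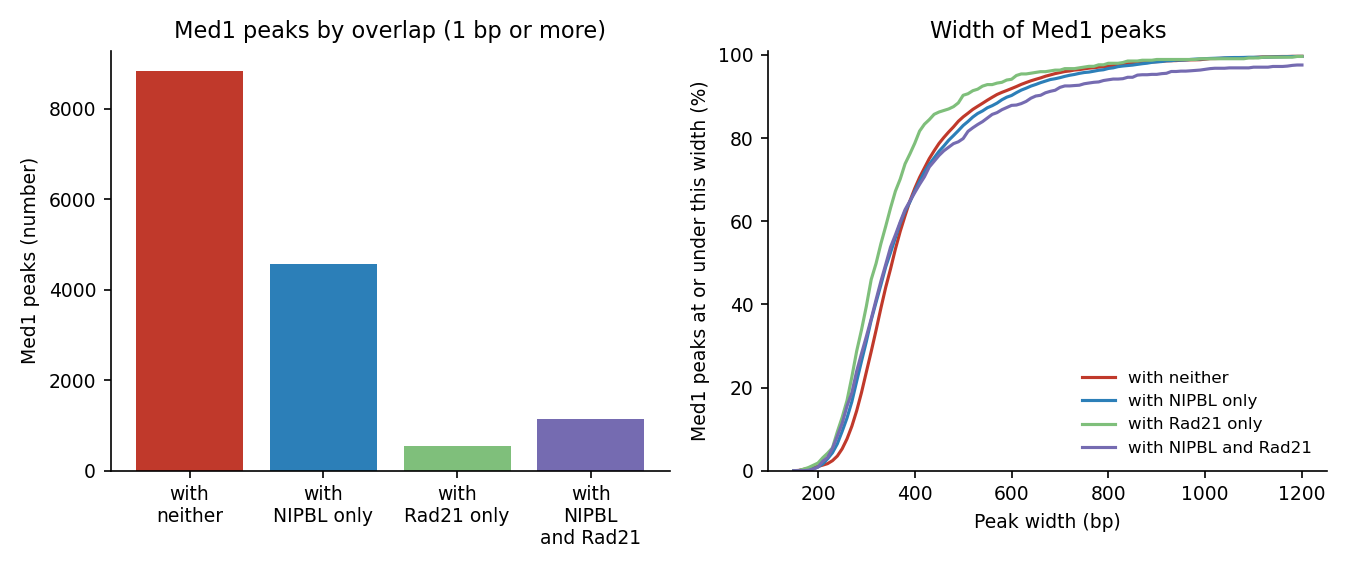
Left, number of Med1 peaks in each class of overlap with NIPBL and Rad21 peaks. Right, the share of each class at or under a given width in bp, where the curve of the 8842 peaks with neither factor (median 353 bp) lies close to that of the 4571 with NIPBL only (median 344 bp).

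Peaks with neither factor were about as wide as the shared ones. Their median width was 353 bp (exact order-statistic interval 351 to 356 bp), with a middle range of 303 to 430 bp, and the extremes were 156 and 2889 bp. The medians of the other classes were 344 bp with NIPBL only, 341 bp with both factors and 321 bp with Rad21 only. Narrow peaks under 300 bp were 23.3% of those with neither factor and 31.5% of the shared ones. Peaks of 1 kb or more were rare in both, at 91 (1.03%) and 87 (1.39%). Among the shared peaks the wide ones were more frequent where both factors were present (3.56%) than with NIPBL only (0.897%). All of these are values within 1 library, and peaks are not replicates, so the differences were not tested. Under a rule of 1 bp a wider interval can more easily touch a NIPBL or Rad21 peak, so width and class are not independent.

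The widest peaks with neither factor were 2 neighbours on chromosome 1 (all coordinates mm9). These were chr1:173490764-173493652, 2889 bp wide, and chr1:173488286-173490331, 2046 bp wide. The wider one lay 801 bp from the nearest Rad21 peak and 27529 bp from the nearest NIPBL peak. The next in width were chr9:123832589-123834350 (1762 bp), chr7:148175854-148177523 (1670 bp) and chr1:190211278-190212920 (1643 bp). The last of these lay 415006 bp from NIPBL and 396889 bp from Rad21, so wide Med1 peaks were found both beside cohesin peaks and far from them.

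The second comparison is the distance to the factors that the peaks lack. The median gap to the nearest NIPBL or Rad21 peak was 6058 bp (interval 5798 to 6359 bp). Within 1 kb lay 1804 members (20.4%), between 1 and 10 kb 3604 (40.8%), between 10 and 100 kb 2851 (32.2%) and beyond 100 kb 583 (6.59%). NIPBL was the nearer factor for 5536 members (62.6%) and Rad21 for 3302 (37.3%), beside a NIPBL list with more peaks than the Rad21 list. Both factors lay within 10 kb of 2484 members (28.1%), NIPBL without Rad21 within 10 kb of 2114 (23.9%), Rad21 without NIPBL within 10 kb of 810 (9.16%), and neither within 10 kb of 3434 (38.8%).

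Rad21 lay farther from Med1 peaks with neither factor than from Med1 peaks with NIPBL only, neither of which can overlap Rad21. The median gap to Rad21 was 16154 bp (interval 15610 to 16801 bp) for the former and 9298 bp (8727 to 9845 bp) for the latter. Within 1 kb of Rad21 lay 6.18% and 13.9% of the 2 classes, and beyond 100 kb lay 11.0% and 3.76%. For NIPBL, the median gap was 8992 bp from Med1 peaks with neither factor and 5922 bp from the 546 Med1 peaks with Rad21 only. In the plot of gaps the 2 curves for Rad21 are apart from about 100 bp to beyond 100 kb and meet at both ends. At 100 kb they stood at 89.0% (neither factor) and 96.2% (NIPBL only), and at 1 Mb at 99.1% and 99.9%. Over windows of 1 Mb the numbers of NIPBL and Rad21 peaks had a Spearman correlation of 0.94, and the part of this in the difference was not tested.

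**Figure D2:**
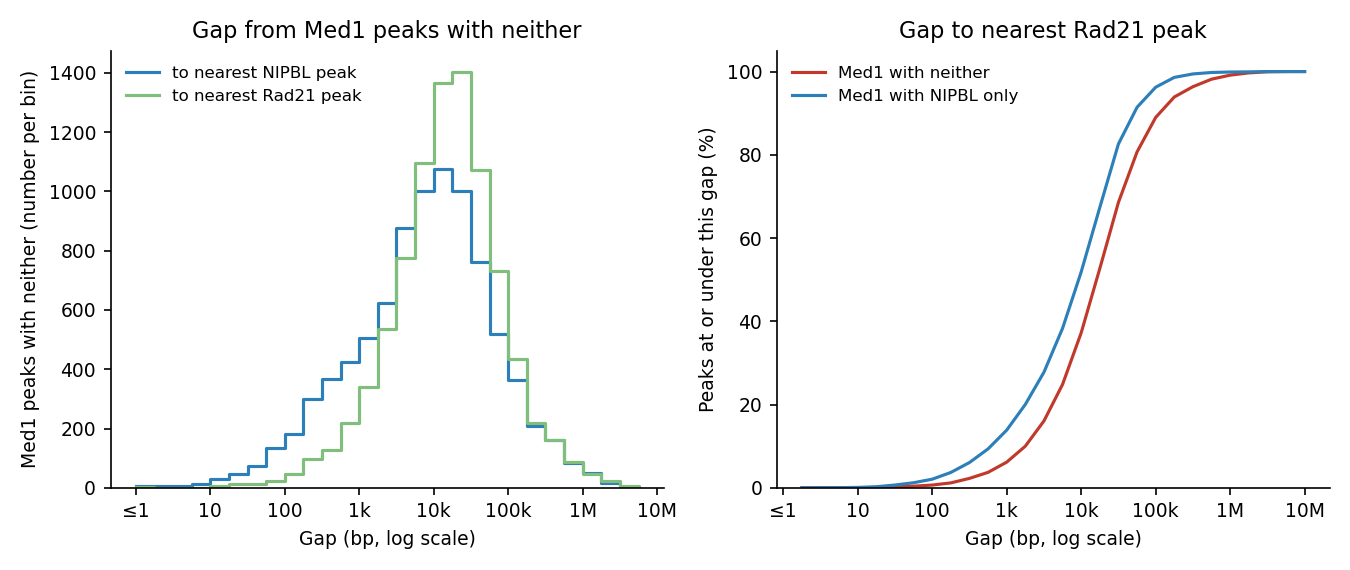
Left, number of Med1 peaks with neither factor by their gap in bp (log scale, 4 bins per power of 10) to the nearest NIPBL and Rad21 peak. Right, the share of Med1 peaks at or under a given gap to Rad21, where the curve of peaks with neither factor (median 16154 bp) runs below that of peaks with NIPBL only (median 9298 bp) from about 100 bp to beyond 100 kb.

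At the limit of the rule, membership turned on a few bases. Of the members, 33 lay under 10 bp from a NIPBL or Rad21 peak and 360 lay up to 100 bp from one. Just inside, 4 members touched a NIPBL or Rad21 peak with no base shared, 1 of them on chromosome 18. The others were chr1:193245449-193245813 and chr10:121078512-121078826, which each touch a NIPBL peak, and chr10:41293061-41293379, which touches a Rad21 peak. No source says whether starts were counted from 0 or from 1, and with starts counted from 1 these 4 would share 1 bp and 8838 members would remain. The next were chr1:135990689-135991045, 1 bp from NIPBL, and chr1:162260249-162260625, 1 bp from Rad21. Just outside were chr1:60805651-60805916, chr1:194571976-194572616, chr15:59146004-59146331, chr6:38291618-38291925 and chr6:124707106-124707503, which each share 1 bp with NIPBL. Most shared peaks were far from this limit: a NIPBL peak covered 83.7% of the Med1 peak it overlapped in the median, a Rad21 peak 68.3%, and 445 of 6270 shared peaks had a largest overlap of up to 100 bp.

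Median widths were similar at all distances. The median was 338.5 bp within 1 kb of NIPBL or Rad21, 356 bp at 1 to 10 kb, 359 bp at 10 to 100 kb and 355 bp beyond 100 kb. Peaks of 1 kb or more were 0.610%, 1.30%, 0.877% and 1.37% of these 4 bands.

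The cohesin and loader peaks beside members were more often Med1 sites than all peaks of their lists, though most were not. Members within 1 kb of NIPBL had 1478 different NIPBL peaks as their nearest, and 32.5% of those overlapped some other Med1 peak, against 11.2% of all NIPBL peaks. The same NIPBL peaks overlapped Rad21 in 14.5% of cases, against 19.8% of all. Members within 1 kb of Rad21 had 503 different nearest Rad21 peaks, of which 27.8% overlapped another Med1 peak, against 6.41% of all Rad21 peaks, and 50.7% overlapped NIPBL, against 37.5% of all. Within 10 kb the shares with Med1 were 24.0% for NIPBL and 14.6% for Rad21. Med1 peaks lie near one another in any case, as given next, and what that adds to these shares was not tested.

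The most remote members formed a small set. The gap to both factors was over 1 Mb for 51 members, on 14 chromosomes, with 9 on chromosome 17, 8 on chromosome 4, 7 on chromosome 14 and 6 each on chromosomes 1 and 8. Their widths ran from 160 to 826 bp with a median of 343 bp, close to that of all members. Most stood apart from other Med1 peaks too, since 27 had none within 100 kb, while 8 had one within 5 kb. The farthest was chrX:114884038-114884357, 3211977 bp from Rad21 and 3902269 bp from NIPBL, and 5169831 bp from the next Med1 peak. The next were chr1:103799082-103799431, the pair chr6:77167207-77167431 and chr6:77125826-77126241, which are 40965 bp apart, and chr12:63118676-63119004.

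The third comparison is the arrangement of Med1 peaks among themselves. The next Med1 peak of any class was at a median of 9504 bp from a member (interval 8933 to 9976 bp), against 8180 bp for peaks with NIPBL only, 8050 bp for peaks with both factors and 15004 bp (11688 to 18395 bp) for the 546 peaks with Rad21 only. Another Med1 peak lay within 1 kb of 22.5% of members, 29.3% of peaks with NIPBL only and 29.8% of peaks with both, and within 5 kb of 39.8%, 43.7% and 44.1%. At 50 kb the shares were 80.9%, 79.3% and 82.9%. For peaks with Rad21 only they were 20.9% within 1 kb, 35.3% within 5 kb and 78.4% within 50 kb, so members lay between that class and the other 2 up to 5 kb. Members with a near NIPBL or Rad21 peak had more Med1 neighbours: 58.7% of those within 1 kb of either factor had another Med1 peak within 5 kb, against 21.3% of those over 100 kb away.

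Neighbouring Med1 peaks tended to be of one kind. Of 2179 adjacent Med1 pairs up to 1 kb apart, 801 were 2 members, 741 were 2 shared peaks and 637 were mixed. Counted from the members, 71.5% of such neighbours were members too, and counted from the shared peaks 30.1% were members. Over 50 kb the 2 shares were 59.6% and 56.2%, near the 58.5% of the whole list. In 304 of the 741 pairs of shared peaks (41.0%) a single NIPBL peak touched both, and the part of this in the likeness at short range was not tested.

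Joined wherever the gap between them was at most 12.5 kb, the members fell into 4985 single peaks (56.4% of members) and 1459 groups with 3857 members. Of the groups, 990 were pairs, and 89 held 5 or more members, 648 in all (7.33%). The 5 groups with most members held 120 of them (1.36%).

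The largest group had 46 members over 79.1 kb, chr1:173431449-173510556, which covered 32.8% of that span. It contains both of the widest members. Member widths ran from 229 to 2889 bp with a median of 397.5 bp, and the starts were 1035 bp apart in the median. The same span held 4 other Med1 peaks, 2 NIPBL peaks and 5 Rad21 peaks. The map of this group shows runs of Med1 peaks spread between these NIPBL and Rad21 peaks. The window that contains the group, 173 to 174 Mb on chromosome 1, held 86 NIPBL and 36 Rad21 peaks.

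**Figure D3:**
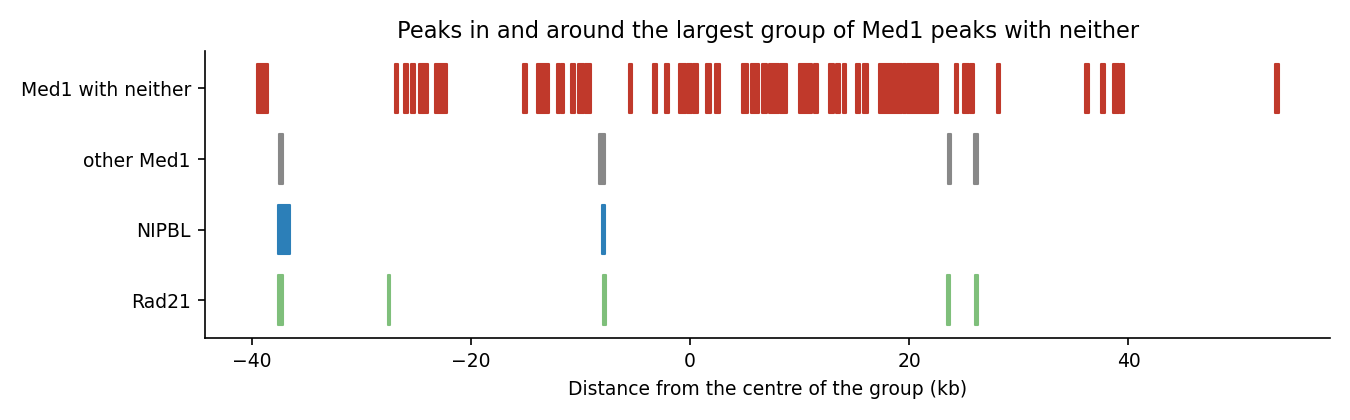
Peaks in the largest group of Med1 peaks with neither factor and 15 kb on each side, as distance in kb from the centre of the group, with 1 line per list. The 46 members of the group cover 32.8% of its span, where 4 other Med1, 2 NIPBL and 5 Rad21 peaks were called, and a further member lies outside the group at the right.

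The other large groups differed in how narrow their peaks were. The second, chr8:19918539-19950643, had 23 members with a median width of 268 bp, 4 NIPBL peaks and no Rad21 peak in its span, and a further group of 13 members with a median width of 248 bp lay beside it at chr8:19969346-19986695. The third, chr7:38960715-38985312, had 20 members with a median width of 443 bp, which covered 42.4% of 24.6 kb, with 5 NIPBL peaks and 1 Rad21 peak. In the fourth, chr9:3002347-3038520, the 16 members had a median width of 184 bp, below the 5th percentile of all members (249 bp). Among them lay 8 NIPBL peaks, 8 Rad21 peaks and 13 other Med1 peaks, more of the last than in any other group named here. The fifth, chr12:116835443-116863082, had 15 members with a median width of 371 bp. In a group of 11 members, chr3:25428129-25453614, the span held 1 NIPBL peak and no Rad21 peak, and in a group of 10, chr11:72280470-72302810, it held neither. No input library or genome sequence was used, so mapping and repeats in the spans of these groups were not checked.

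The fourth comparison is by chromosome, and chromosomes 1 and 17 stood apart. They held 1173 and 840 members, 22.8% of all members together, against 11.9% of NIPBL peaks and 11.4% of Rad21 peaks. Per 100 NIPBL peaks there were 34.7 members on chromosome 1 and 30.0 on chromosome 17. The other 17 autosomes lay between 12.9 (chromosome 11) and 18.2 (chromosome 8), with a median of 14.6. Per Mb up to the last peak, chromosome 17 had 8.82 members and chromosome 1 had 5.95, and the other autosomes ran from 2.14 to 5.10. All counts of Med1 peaks by chromosome rest on 1 Med1 library, with no input library analysed here. Copy number, strain and mapping on chromosomes 1 and 17 were not tested.

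The excess on these 2 chromosomes was shared by Med1 peaks that overlap NIPBL or Rad21. These stood at 18.6 per 100 NIPBL peaks on chromosome 1 and 21.5 on chromosome 17, against 9.30 to 12.6 on the other autosomes. Of NIPBL peaks, 17.2% and 19.8% overlapped Med1 on chromosomes 1 and 17, against 8.74 to 11.9% on the others. The share of NIPBL peaks that overlapped Rad21 was 20.1% on both, within the range of the others (17.9 to 22.0%). Rad21 peaks per 100 NIPBL peaks were 53.7 on chromosome 1, also within that range, and 46.2 on chromosome 17, just under its lowest value (46.6). Members were 65.1% of Med1 peaks on chromosome 1 (exact 95% interval 62.9 to 67.3%) and 58.3% on chromosome 17 (55.7 to 60.8%), and ranged from 50.7% to 61.9% on the others.

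**Figure D4:**
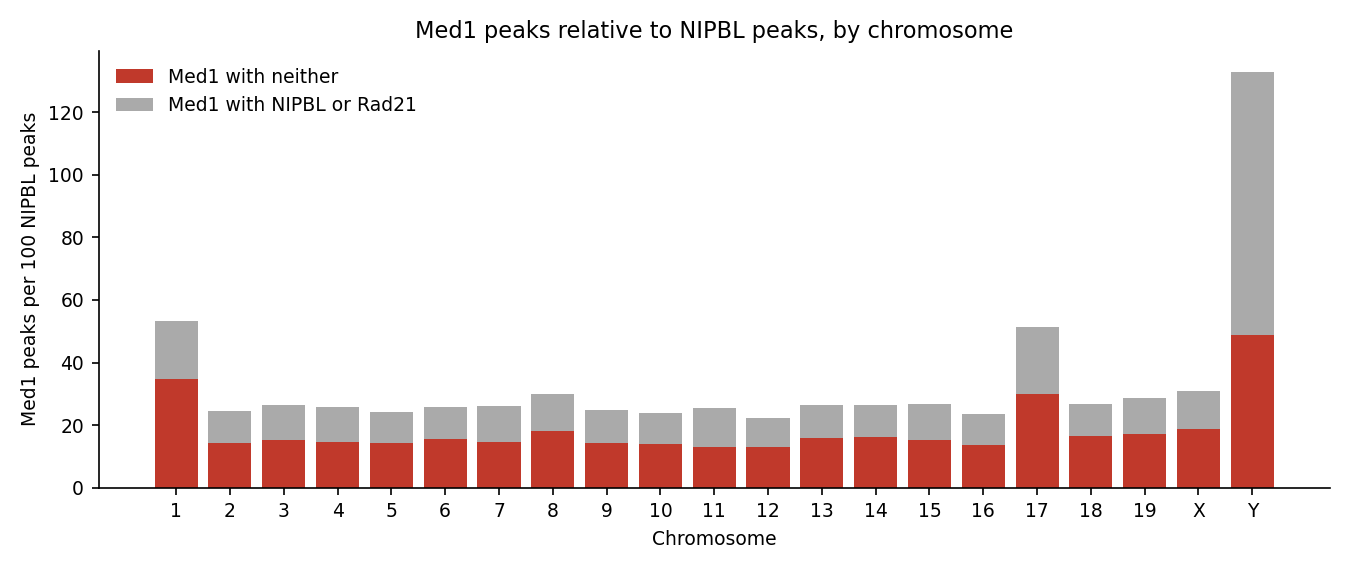
Med1 peaks per 100 NIPBL peaks on each chromosome, with peaks with neither factor at the bottom of each bar and all other Med1 peaks above. Chromosomes 1 and 17 rise above the other autosomes in both parts, and chromosome Y is high on few peaks (43 members and 88 NIPBL peaks).

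The pattern ran along most of both chromosomes. In windows of 10 Mb with at least 20 NIPBL peaks, all 19 windows of chromosome 1 and 8 of 9 on chromosome 17 were above the median of the other autosomes (15.3 members per 100 NIPBL peaks). Chromosome 1 ranged from 22.6 to 78.2, with the highest value between 170 and 180 Mb, which includes the largest group. Chromosome 17 ranged from 12.3 to 50.8, with the lowest value between 50 and 60 Mb. Windows of the other autosomes had a middle range of 11.6 to 20.8 and reached 48.7. Members on chromosomes 1 and 17 had median widths of 360 and 361 bp, within the range of the other autosomes (340.5 to 363 bp). Another Med1 peak lay within 5 kb of 46.2% and 56.8% of them, against 27.7 to 42.7% on the others.

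**Figure D5:**
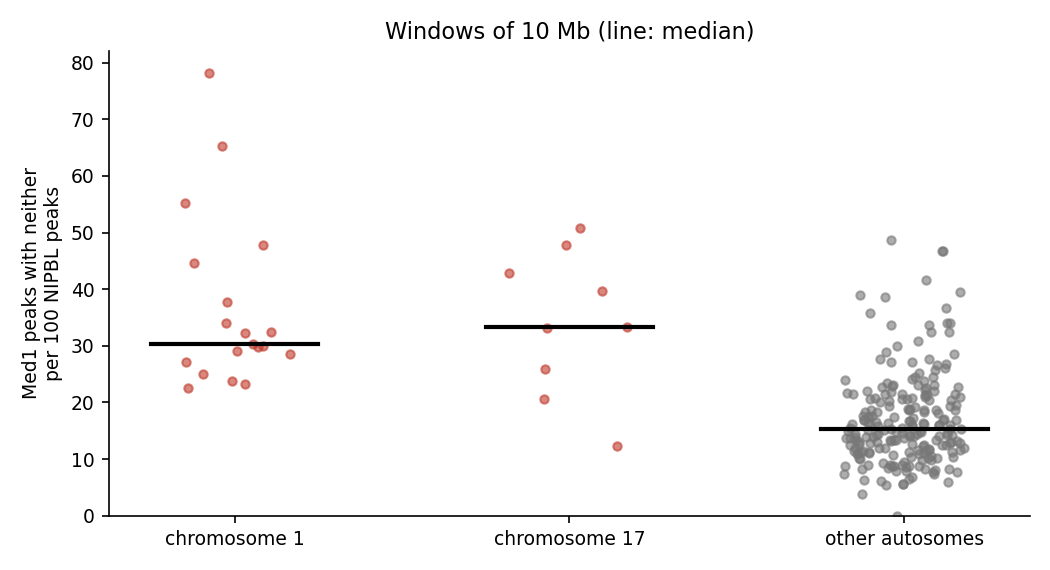
Members per 100 NIPBL peaks in windows of 10 Mb that hold at least 20 NIPBL peaks, with 1 point per window and the median as a line. The medians are 30.4 on chromosome 1, 33.3 on chromosome 17 and 15.3 on the other autosomes, whose highest window reaches 48.7.

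The sex chromosomes held few members by number. Chromosome X had 138, or 0.829 per Mb, below all autosomes, and 18.8 per 100 NIPBL peaks, just above the highest of the other 17 autosomes. A single window of chromosome X, from 120 to 130 Mb, held 35 of the 138 beside 26 NIPBL peaks, or 134.6 per 100. Chromosome Y had 43, or 14.8 per Mb and 48.9 per 100 NIPBL peaks, the highest rates of any chromosome. They were 36.8% of the 117 Med1 peaks there (exact 95% interval 28.0 to 46.2%), all before 2.90 Mb, where the last peak of any list ends.

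On the scale of 1 Mb, members and the other lists rose and fell together. Over the 2211 windows with a peak of any list, the number of members had a Spearman correlation of 0.68 with other Med1 peaks, 0.62 with NIPBL peaks and 0.63 with Rad21 peaks. For the other Med1 peaks the correlations were 0.78 with NIPBL and 0.75 with Rad21. By the rule each of those peaks overlaps a NIPBL or Rad21 peak and no member does. The part of the rule in their higher values was not tested. The windows share libraries, gene density and mappable length, so these values are descriptions. A member lay in 1641 windows (74.2%), with a median of 4 in those. The 41 windows with 20 or more members held 1119 of them, and 28 of the 41 were on chromosomes 1 and 17. The highest counts were 74 members between 173 and 174 Mb on chromosome 1, 45 between 29 and 30 Mb on chromosome 17, and 42 between 19 and 20 Mb on chromosome 8. In the last of these, 11 NIPBL peaks and 0 Rad21 peaks were called.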

How the data were processed

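The authors deposited 1 peak list per ChIP-seq library, as chromosome, start and end in mm9 per the submitters' processing notes, with no score, height or p-value. The file names name the peak caller SWEMBL and point to filtering and removal of duplicate reads. For the aligner, the caller's settings, the use of the input libraries and the sequencing depth, nothing is given in the sources used here. The intervals were read as BED intervals, and starts are printed counted from 1.

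Overlap of 1 bp or more counted as shared, and bedtools 2.31.1 gave the same 8842 members. A gap is the number of bases between 2 intervals. Other values were computed in Python 3.11.15 with functions tested on simulated peaks. The regions named are the 5 widest, 5 most remote and 5 on each side of the overlap limit, and the 5 groups with most members, none from chromosome 18. The smaller groups, the chromosomes and the windows described were chosen after their values were seen. The members and the measures were chosen with earlier results of these data known.

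The RNA-seq table that the authors deposited holds whole numbers per Ensembl gene, named count equivalents and treated here as estimated counts. CPM is the count scaled to a library total of 1000000, and symbols were found for 17342 of 17849 genes. The Rad21 KO RNA, Hi-C and input libraries were not analysed here. No mm9 gene annotation or genome sequence was used, so peaks are given by position, with no gene or motif, and the RNA was not joined to peaks. Alternatives were other overlap limits, wider peaks, autosomes and other join distances. One cell type marker is not reported here.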

Additional observations from a re-analysis of the deposited data

How the results depend on the processing

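Each value rests on 1 library per protein, so only settings of the peak comparison could be varied. No paired analysis was possible because no result comes from a test between groups of replicates. Peak lists without a score allow no stricter calling threshold. A minimum width at the median of the Med1 list was tried instead, and no value here links width to calling strength. The planned analyses of gene positions, of RNA change near members and of sequence were not run, as they need mm9 annotation. Of 57 recomputed values 39 stayed within the counting interval of the value reported or, for counts, within 1.5 times it, and 18 did not. The limit for counts is the looser: with NIPBL and Rad21 widened by 1000 bp, the 7038 members stayed within it while their share moved. With at least 50% of a Med1 peak needed for an overlap, the share of Med1 peaks with neither factor was 66.7%, the median gap 4452 bp and the share with another Med1 peak within 5 kb 41.1%. With NIPBL and Rad21 widened by 200 bp these were 54.3%, 7132 bp and 38.3%. Widened by 1000 bp they were 46.6%, 9557 bp and 34.9%, with a median width of 357 bp. These settings admit or drop the Med1 peaks nearest to a factor. The direction in which share and gap moved was thus set by construction. Wider Med1 peaks gave 4624 members (61.0%), a median width of 425 bp, a gap of 6588 bp and 597 groups. Of these members 24.5% lay on chromosomes 1 and 17. Fewer peaks and a higher median width follow from this setting by construction. Leaving out chromosomes 1 and 17, chosen after seeing the data, gave 57.5% and 36.6% with another Med1 peak within 5 kb. Leaving out the 5 largest groups, or reading starts as counted from 1, both also chosen then, moved none of the values beyond these limits.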
